A study of Homo sapiens with 12 samples.

Results

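The MYC and MAX network is described here by 8 genes, chosen by symbol: MYC, its obligate partner MAX, the MXD-family repressors MXD1, MXD3, MXD4 and MXI1, and the large MAX-binding repressors MNT and MGA. They are 8 of the 57820 gene IDs listed in each library, and all 8 had a row in every library of both cell lines. RNA-seq of poly(A) RNA covered 12 libraries in 5 groups. BICR31, a head and neck squamous cell carcinoma line, was treated with an siRNA that silences KLF5 (siKLF5) or with a negative control siRNA (siNC), in 3 libraries each, lettered A, B and C. HCC95, from lung squamous cell carcinoma, received an empty vector (Empty) or overexpressed wild-type KLF5 (WT) or the missense form KLF5 E419Q, in 2 libraries each, lettered A and B. KLF5 is a zinc-finger transcription factor of epithelial cells. The siRNA sequence, the vector, the time of harvest and whether the cells were 1 clone are not stated by the labels. Whether the libraries within a group are separate cultures is not stated in the labels. The p-values therefore reflect how far these libraries spread, a spread that may be technical.

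MYC is a basic helix-loop-helix leucine zipper protein that binds DNA only as a dimer with MAX, at E-boxes with the core CACGTG, and promotes transcription of genes for ribosome production, nucleotide synthesis and cell growth. MXD1, MXD3, MXD4, MXI1 and MNT also pair with MAX, bind the same boxes and recruit SIN3 and histone deacetylase corepressors, so that they can oppose MYC at shared genes. MGA pairs with MAX inside a variant polycomb complex known as PRC1.6. In stratified squamous epithelium MYC is typical of the dividing basal layer, whereas several MXD proteins accumulate as cells stop dividing and differentiate.

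Promoter windows of the 250 bases before the start site were read for the network genes from RefSeq (GRCh38.p14), in which 7 of the 8 genes, all but MYC, matched with 12 windows in all. CACGTG, the same letters on both strands, was found in 2 of the 12 windows, those of MXD4 and MNT. Its first base lay at -238 and -193 from the start site. Across 35116 windows of the same length, 6.345% held CACGTG. Both windows are shown because MXD4 and MNT were the repressor genes called higher after KLF5 silencing, and no other window of the network held CACGTG. Capitals mark CACGTG and, on either strand, GGGCGG, known as the GC box, and GGGTGG, known as a CACCC-type box, the kinds of box that KLF and SP factors can bind. In these 2 windows no match overlaps another. The MXD4 window lies at chr4:2262110-2262359 and the MNT window at chr17:2401061-2401310, both on the minus strand and printed 5′ to 3′.
MXD4: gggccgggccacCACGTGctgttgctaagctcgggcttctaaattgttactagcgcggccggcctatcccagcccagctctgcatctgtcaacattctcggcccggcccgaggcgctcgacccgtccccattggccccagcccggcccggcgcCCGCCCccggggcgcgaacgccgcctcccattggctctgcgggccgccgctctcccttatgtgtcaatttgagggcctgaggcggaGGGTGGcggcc
MNT: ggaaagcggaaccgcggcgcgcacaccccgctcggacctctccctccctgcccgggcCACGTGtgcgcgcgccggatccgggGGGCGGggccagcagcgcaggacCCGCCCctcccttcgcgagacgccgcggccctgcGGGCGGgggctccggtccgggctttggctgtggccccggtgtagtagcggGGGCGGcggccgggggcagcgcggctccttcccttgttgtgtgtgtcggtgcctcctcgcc
The GC box was found in 9 of the 12 windows of network genes and in 42.64% of all windows. The CACCC-type box was found in a window of each of MAX, MXD1, MXD4, MXI1 and MGA. Genes with several windows have more chances of a match. This list by gene is therefore not comparable with the 31.26% of all windows that held the box. These matches describe letters in the windows only, and binding was not measured. The expression files were made on hg19, so no other coordinate is given.

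KLF5 itself followed the labels. In BICR31 it stood at 2530.1 ± 211 units (deposited normalised signal, SD, n = 3) with siNC and 959 ± 67.5 units with siKLF5. In HCC95 it stood at 143 ± 9.77 CPM (estimated counts scaled to the library's total, SD, n = 2) with Empty, 412 ± 11.3 CPM with WT and 435 ± 10.3 CPM with E419Q. The libraries held 1922356 to 2296187 estimated counts in BICR31 and 3074139 to 4643792 in HCC95. All 12 squamous markers checked, among them KRT5, TP63 and SOX2, averaged at least 5 CPM over all libraries of each line. Averages of single markers by group were not checked. CD3E and MS4A1, which mark T and B cells, were at 0 in every library. In BICR31 the summed level of the 12 squamous markers was 9210 to 9419 CPM with siNC and 6284 to 6627 CPM with siKLF5, that of 6 fibroblast markers 49.4 to 53.8 and 105 to 123 CPM, that of 4 endothelial markers 9.36 to 14.0 and 14.8 to 24.1 CPM, and that of 7 immune markers 24.9 to 29.7 and 44.8 to 50.1 CPM. In HCC95 the squamous sum was 21452 to 22351 CPM with Empty, 25338 to 26360 CPM in WT libraries and 16093 to 17022 CPM in E419Q libraries. The fibroblast sum was 11.2 to 13.0 CPM in Empty, 8.01 to 8.81 CPM in WT and 14.3 to 17.5 CPM in E419Q libraries, the endothelial sum 11.4 to 14.5, 12.3 to 16.5 and 26.3 to 28.8 CPM, and the immune sum 65.3 to 65.4, 48.0 to 48.6 and 51.4 to 51.8 CPM. LUM, of the fibroblast list, and KDR, of the endothelial list, were at 0 in all 6 HCC95 libraries. The part of these shifts in the results below was not tested, and in RNA from whole cultures fewer cells of a type and less RNA per cell cannot be told apart.

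After KLF5 silencing in BICR31, the MYC transcript fell and those of the repressors MXD4 and MNT rose. All 8 network genes passed the minimum of a mean of 10 units, and 3 of the 8 were called at an adjusted p under 0.05 by limma, beside 26.1% of the 15710 genes tested (15.3% higher and 10.8% lower). With only 8 genes, that count is close to the background share and is no result about the network as a whole.

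MYC, the activating member, stood at 3673, 3511 and 3595 units with siNC A, B and C and at 2498, 2350 and 2827 units with siKLF5 A, B and C. The 3 siKLF5 libraries were all below the 3 siNC libraries, and siKLF5 C was the highest of the silenced ones. These levels rested on 385 to 404 estimated counts per siNC library and 282 to 359 per siKLF5 library. The log2 fold change of log2(signal + 1) was -0.49 (SE 0.0737, limma adjusted p = 8.27e-05), a 1.41-fold lower level. The call held under all 11 alternatives tried, with limma adjusted p-values from 1.91e-05 to 0.00112. MAX, the shared partner, stood at 1327, 1213 and 1671 units with siNC and 1635, 1492 and 1543 units with siKLF5. The groups overlapped, since siNC C was above every siKLF5 library, and the log2 difference of 0.16 was not called (SE 0.108, limma adjusted p = 0.308). Without siNC C the limma adjusted p was 0.0497, just under the threshold. That was the only 1 of the 11 alternatives in which MAX was called.

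MXD4, an MXD repressor known from differentiating and resting cells, showed the largest change of the 8 genes. It stood at 255, 173 and 235 units with siNC A, B and C and at 641, 600 and 535 units with siKLF5. Every siKLF5 library lay above every siNC library. The log2 fold change was 1.43 (SE 0.183, limma adjusted p = 1.62e-05), 2.7-fold higher, from 19 to 28 estimated counts per siNC library and 68 to 78 per siKLF5 library. MNT, the repressor found in most cell types, stood at 349.9, 598 and 506 units with siNC and 802, 913 and 585 units with siKLF5. siKLF5 C lay below siNC B, so these groups overlapped, although MNT was called (log2 fold change 0.67, SE 0.191, limma adjusted p = 0.0150). The call was lost without siKLF5 A (limma adjusted p = 0.0714), without siKLF5 B (0.103) and without siNC A (0.0815).

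The other repressors were not called in BICR31. MXD1, the founding MXD gene, ranged from 90.3 to 155 units with siNC and from 131 to 236 with siKLF5, and the 10 to 30 estimated counts behind each value gave a wide error (log2 difference 0.62, SE 0.313, limma adjusted p = 0.162). MXD3, the MXD gene linked to S phase, was at 326 ± 50.7 and 329 ± 18.7 units (SD, n = 3), a log2 difference of 0.02. MXI1 ranged from 118 to 189.7 units with siNC and from 164 to 208 with siKLF5 (log2 difference 0.26, limma adjusted p = 0.510). MGA was at 1002 ± 115 and 993 ± 77.0 units, a log2 difference of -0.01. In all 4 of these genes the groups overlapped.

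**Figure D1:**
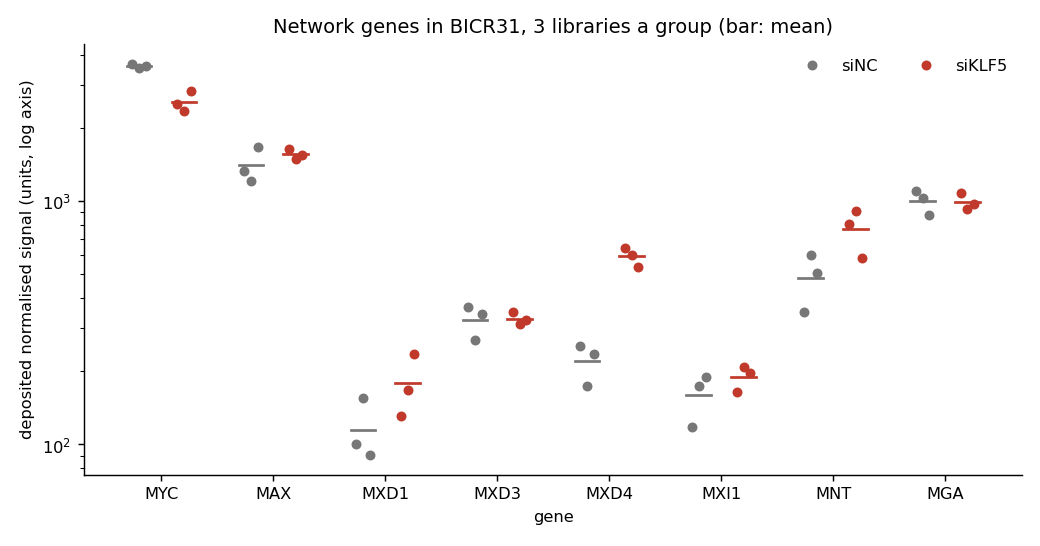
Deposited normalised signal (units, log axis) of the 8 network genes in BICR31, 1 point per library and a bar at the mean of 3, for siNC and siKLF5. The siKLF5 points lie below the siNC points for MYC (2350 to 2827 against 3511 to 3673 units) and above them for MXD4 (535 to 641 against 173 to 255 units), and the groups overlap for the other 6 genes.

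In HCC95 cells with WT, MXD4 and MXI1 rose and MYC showed no detectable difference from Empty. All 8 genes passed the filter on low counts, and 2 of the 8 were called by edgeR, both higher, beside 22.9% of the 12933 genes tested (10.8% higher and 12.1% lower). In cells with E419Q, MXD4 and MXI1 rose as well and MYC fell. There 3 of the 8 genes were called by edgeR, beside 21.2% of genes tested (10.4% higher and 10.8% lower). These counts, too, are close to the background shares. The WT and E419Q comparisons share the Empty libraries, so the same 2 higher genes are not 2 independent findings.

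MYC stood at 287 and 272 CPM in Empty A and B, at 278 and 265 CPM in WT A and B, and at 228 and 213 CPM in E419Q A and B. WT overlapped Empty, and both E419Q libraries lay below the other 4. Against Empty the log2 fold change was -0.05 with WT (95% interval -0.19 to 0.08, edgeR adjusted p = 0.621). For E419Q against Empty it was -0.37 (SE 0.0678, edgeR adjusted p = 0.000337). Compared directly, MYC was lower with E419Q than with WT by a log2 fold change of -0.32 (95% interval -0.46 to -0.18, edgeR adjusted p = 0.00331). This was the only one of the 8 genes called between the mutant and the wild type, beside 8.0% of genes tested (4.41% higher and 3.59% lower). The direct call was lost with DESeq2 (adjusted p = 0.0516), without E419Q B (edgeR adjusted p = 0.0961) and without WT A (0.0613), whereas the E419Q call against Empty held under all 11 alternatives (adjusted p at most 0.0187). KLF5 itself did not differ between WT and E419Q beyond its error (ratio of E419Q to WT 1.04, 95% interval 0.954 to 1.14). MAX ranged from 34.1 to 45.6 CPM over the 6 libraries, and the groups overlapped in every comparison.

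MXD4 stood at 33.3 and 29.5 CPM with Empty, 46.9 and 54.9 CPM with WT, and 47.8 and 49.6 CPM with E419Q. Both Empty libraries were the lowest of the 6. With WT it rose by 0.70 on the log2 scale (SE 0.124, edgeR adjusted p = 0.000256). With E419Q the log2 fold change was 0.61 (SE 0.129, edgeR adjusted p = 0.00131). The latter was lost with DESeq2 (adjusted p = 0.101). MXI1, the MXD gene first found as a MAX interactor, stood at 17.4 and 17.0 CPM with Empty, 24.7 and 28.1 CPM with WT, and 25 and 27.6 CPM with E419Q. Again the 2 Empty libraries were the lowest, from 60 to 112 estimated counts per library. MXI1 rose by 0.61 on the log2 scale with WT (SE 0.158, edgeR adjusted p = 0.00706). With E419Q it rose by 0.59 (SE 0.163, edgeR adjusted p = 0.0117). In TPM, given further below, MXI1 with WT and with E419Q overlapped Empty. The WT call was lost with DESeq2 (adjusted p = 0.264) and without WT B (edgeR adjusted p = 0.0960), and the E419Q call with DESeq2 (0.366), without E419Q B (edgeR adjusted p = 0.119) and without Empty B (0.0627). Between E419Q and WT the log2 difference was -0.09 for MXD4 (95% interval -0.33 to 0.16) and -0.02 for MXI1 (-0.34 to 0.29), neither of them called.

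The other repressors were not called in any HCC95 comparison. MNT was at 23.3 ± 0.937 CPM with Empty, 27.7 ± 1.78 with WT and 24.0 ± 2.42 with E419Q (SD, n = 2). MXD3 was at 25.8 ± 2.86, 30.7 ± 3.27 and 30.6 ± 3.71 CPM, with both groups of KLF5-overexpressing libraries above Empty (log2 differences 0.24 and 0.20, edgeR adjusted p = 0.273 and 0.396). MXD1, the gene with the fewest counts (38 to 72 per library), was at 17.2 ± 2.34, 13.9 ± 1.25 and 13.5 ± 3.06 CPM, and its log2 differences of -0.30 and -0.37 carried standard errors of 0.203 and 0.211. MGA stayed between 49.6 and 60.6 CPM in all 6 libraries.

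**Figure D2:**
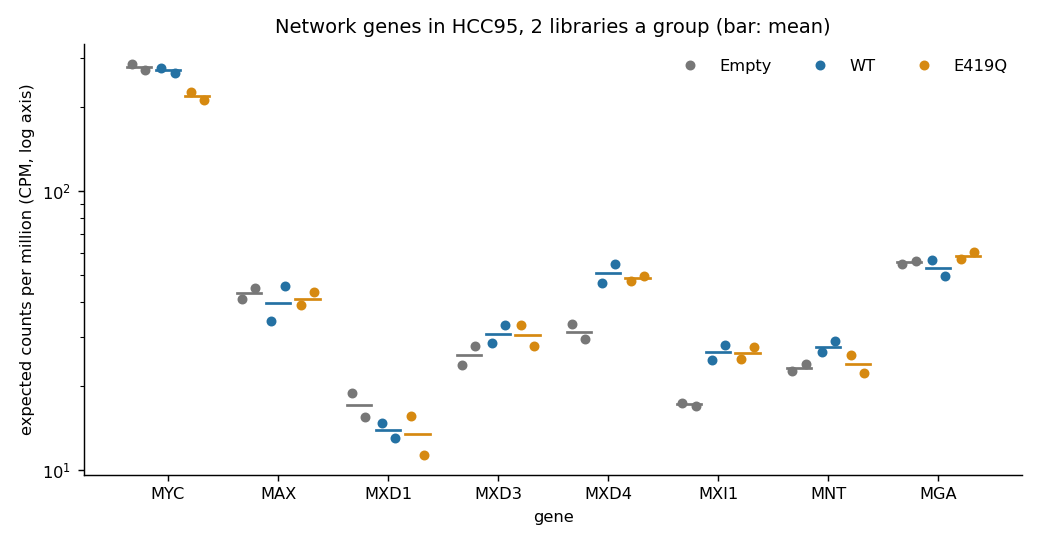
CPM, estimated counts scaled to the library's total (log axis), of the 8 network genes in HCC95, 1 point per library and a bar at the mean of 2, for Empty, WT and E419Q. MYC is lowest in the E419Q libraries (213 and 228 CPM), and MXD4 and MXI1 are lowest in the Empty libraries (29.5 and 33.3, and 17.0 and 17.4 CPM).

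Across the lines, MXD4 was called higher when KLF5 was silenced in BICR31 and when it was overexpressed in HCC95, in lines and units that differ. MYC was called lower with silencing in BICR31 and with E419Q in HCC95, with log2 fold changes of -0.49 and -0.37. MNT was called in BICR31 alone and MXI1 in HCC95 alone, and the difference between lines was not tested for either.

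**Figure D3:**
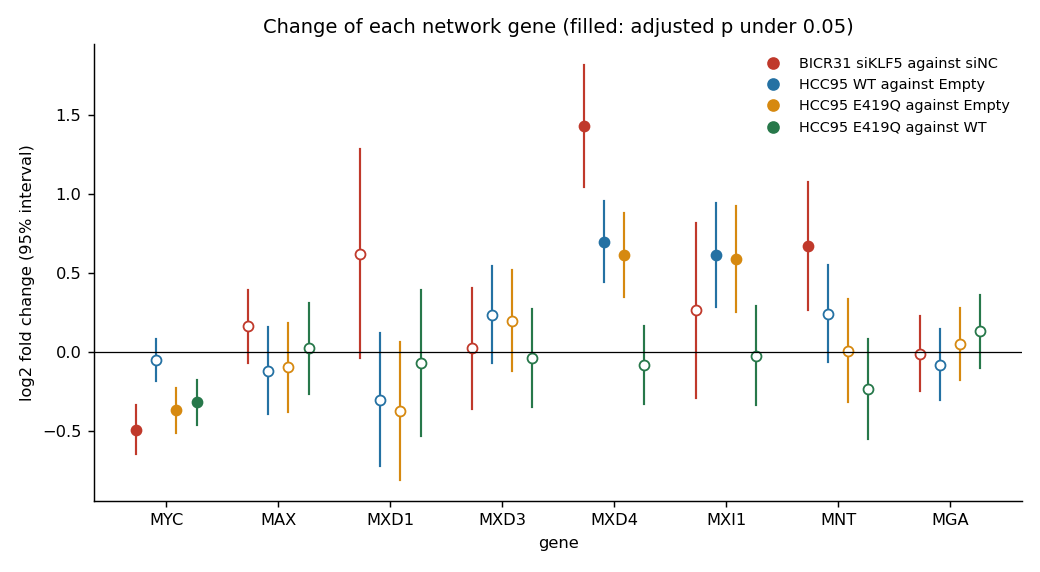
Log2 fold changes of the 8 network genes in the 4 comparisons, with 95% intervals, filled where the adjusted p was under 0.05. MXD4 lies above 0 in siKLF5 against siNC (1.43), WT against Empty (0.70) and E419Q against Empty (0.61), and MYC below 0 in siKLF5 against siNC (-0.49), E419Q against Empty (-0.37) and E419Q against WT (-0.32).

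Levels of different genes can be compared only per length. In HCC95 the deposited TPM served, and in BICR31 the signal per kilobase of the mean gene length deposited with the HCC95 libraries. The length estimate of MYC varied 1.04-fold between HCC95 libraries, but that of MXD1 1.98-fold and that of MXI1 1.67-fold. Their TPM values therefore carry the uncertainty of that estimate as well as that of the counts. MXI1, called higher on counts, ranged from 13.55 to 17.47 TPM with Empty, 16.65 to 20.34 with WT and 14.49 to 24 with E419Q. Per length, both KLF5-overexpressing groups thus overlapped Empty for MXI1, and no test was made on TPM. MYC ranked first and MAX next in every group. With siNC, MYC was at 1587 ± 35.8 and MAX at 929 ± 158 units per kilobase (SD, n = 3), without overlap. With siKLF5, they were at 1130 ± 108 and 1031 ± 48.1 units per kilobase, and their ranges overlapped. In HCC95 MYC was at 198 ± 0.530 TPM with Empty, 185 ± 3.0 with WT and 151 ± 7.38 with E419Q, above MAX at 52.5 ± 1.17, 40.9 ± 16.4 and 43.8 ± 1.21 TPM.

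The repressors ranked below MAX, and MXD4 changed its place in BICR31. With siNC the order was MXD3, MNT, MGA, MXI1, MXD4 and MXD1, from 173 ± 27.0 units per kilobase for MXD3 to 72.3 ± 13.9 for MXD4 and 29.1 ± 8.81 for MXD1. Neighbours from MXD3 to MXD4 overlapped in range, and MXD4 and MXD1 did not. With siKLF5 MXD4 came first at 194 ± 17.4, followed by MNT at 189.9 ± 41.3 and MXD3 at 175 ± 9.97 units per kilobase, 3 genes whose neighbours overlapped. In HCC95 the order began with MXD3, MXI1 and MXD4 with Empty (19.6 ± 2.20, 15.5 ± 2.77 and 15.0 ± 2.28 TPM), and with MXD3, MXD4 and MXI1 in WT (28.0 ± 4.16, 25.3 ± 3.71 and 18.5 ± 2.61 TPM) and in E419Q (27.0 ± 1.67, 26.1 ± 3.82 and 19.2 ± 6.72 TPM). MXI1 and MXD4 overlapped with Empty and in E419Q, MXD3 and MXD4 in WT and E419Q, and MAX and MXD3 in WT. MXD1 had the lowest mean in all 5 groups, at 4.90 to 6.80 TPM in HCC95. There its range overlapped those of MNT and MGA with Empty and that of MGA with WT.

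**Figure D4:**
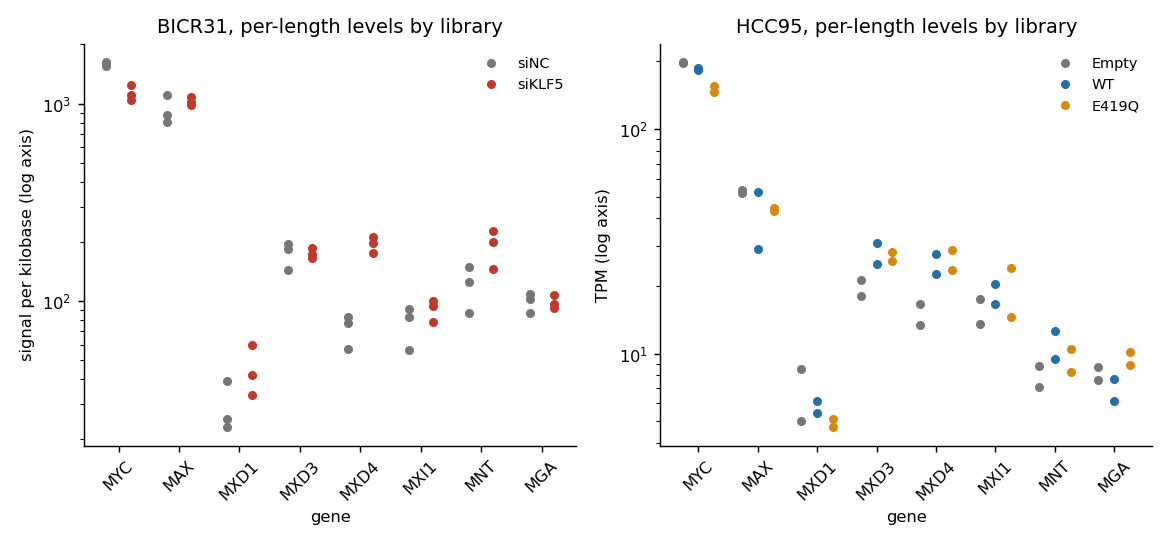
Levels per length of the 8 network genes, 1 point per library on log axes, as signal per kilobase in BICR31 (siNC and siKLF5) and as deposited TPM in HCC95 (Empty, WT and E419Q). MYC lies above MAX in every group on average, and with siKLF5 MXD4 moves from 72.3 to 194 units per kilobase on average, to the height of MNT and MXD3.

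MYC transcripts were set against repressor transcripts within each library. The ratio of MYC per length to the sum of MXD1, MXD3, MXD4, MXI1 and MNT was 3.63, 3.30 and 3.19 with siNC A, B and C and 1.56, 1.42 and 1.93 with siKLF5. In HCC95 it was 3.28 and 2.84 with Empty, 2.33 and 1.88 with WT, and 1.91 and 1.59 with E419Q. The Empty libraries had the highest ratios in HCC95 and the siNC libraries in BICR31, without overlap, whereas WT and E419Q overlapped. No test was made on these ratios. They combine called changes with changes that were not called, such as those of MXD3 in both lines and of MYC with WT. MXD4 made up 12.1 to 18.7% of the repressor sum with siNC and 26.9 to 29.7% with siKLF5. The ratio of MYC to MAX was 1.44 to 1.93 with siNC and 1.02 to 1.22 with siKLF5. In HCC95 it ranged from 3.39 to 3.83 except for WT A at 6.37, a library in which MAX stood at 29.3 TPM beside 34.1 CPM. The deposited length of MAX varied 1.37-fold between libraries.

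The other genes of the wider network were MYCN and MYCL, the paralogs of MYC, and MLX, MLXIP (MondoA) and MLXIPL (ChREBP), the parallel branch that senses glucose metabolites. In BICR31 all 5 passed the filter, and 2 rose and 1 fell, beside 15.3% higher and 10.8% lower among all genes tested. MYCN stood at 72.7, 45.6 and 27.1 units with siNC and at 197, 192 and 252 units with siKLF5. It was low in every library (3 to 8 estimated counts with siNC, 23 to 32 with siKLF5) but without overlap (log2 fold change 2.21, SE 0.382, limma adjusted p = 0.000326). MYCL went the other way, at 155, 173 and 154 units with siNC and 49.3, 33.3 and 94.5 units with siKLF5 (log2 fold change -1.56, SE 0.393, limma adjusted p = 0.00696), from 4 to 12 estimated counts per siKLF5 library. Per length, MYCN reached 82.1 ± 12.8 units per kilobase with siKLF5, against 1130 ± 108 for MYC in the same libraries.

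In HCC95, 4 of the 5 were tested, and MYCN, with 0 to 2 counts per library, was not. MYCL rose with E419Q, at 13.0 and 13.1 CPM against 2.89 and 6.03 CPM with Empty (log2 fold change 1.45, SE 0.310, edgeR adjusted p = 0.00154), a call lost with DESeq2 (adjusted p = 0.0787). With WT it stood at 5.69 and 7.76 CPM, overlapping Empty. The direct difference of E419Q from WT was 0.92 on the log2 scale (edgeR adjusted p = 0.0563), and it was called in 4 of 11 alternatives. MYC fell and MYCL rose with E419Q, at 151 ± 7.38 TPM for MYC and 7.0 ± 0.453 TPM for MYCL.

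In the parallel branch, MLXIP rose with siKLF5, from 2173, 2243 and 2114 units to 2843, 2900 and 3260 units (log2 fold change 0.46, SE 0.0738, limma adjusted p = 0.000162). The groups did not overlap. MLX and MLXIPL were not called in any comparison. ARRDC4 and TXNIP, arrestin-family genes that MondoA is known to activate, were both called higher in BICR31, beside 15.3% higher among all genes tested. With only 2 genes, that count is no result about the branch. ARRDC4 went from 336, 283 and 235 units to 567, 542 and 630 units (log2 fold change 1.04, SE 0.170, limma adjusted p = 0.000203). TXNIP had a log2 fold change of 0.20 (limma adjusted p = 0.0438), but 10 of 11 alternatives lost that call (limma adjusted p up to 0.205). In HCC95 TXNIP was listed at 0 in all 6 libraries, where 3 counts would be 0.646 to 0.976 CPM, and ARRDC4 was not called. MLXIP was higher with E419Q than with WT (log2 fold change 0.31, edgeR adjusted p = 0.0297), which was lost in 5 of 11 alternatives, and was not called against Empty with either form.

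Genes that MYC is known to activate were described by a list of 40, mostly of ribosome production, nucleotide and polyamine synthesis. With siKLF5, 32 of 40 fell and none rose by limma (0 at an unadjusted p under 0.05), beside 10.8% lower among all genes tested. The median log2 fold change was -0.53 beside 0.04 over all genes. The list shares genes with one already known to be lower in these BICR31 libraries, so its direction is not independent evidence. Examples were the nucleolar proteins NPM1 (log2 fold change -0.58), FBL (-1.46), DKC1 (-0.73) and NOP56 (-0.74), each with a limma adjusted p of at most 6.49e-07. CCND2, which encodes cyclin D2, fell by 0.79. ODC1, the first enzyme of polyamine synthesis and a textbook MYC target, was at 2846 units with siNC and 2615 units with siKLF5 and was not called (limma adjusted p = 0.273).

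In HCC95, 39 of the 40 genes were tested. With WT, 24 fell by edgeR, beside 12.1% lower among all genes, with a median of -0.29 beside 0.00. With E419Q, 25 fell, beside 10.8% lower, with a median of -0.35 beside 0.00. None of the 39 rose in either comparison by edgeR or DESeq2, and at an unadjusted p under 0.05 in edgeR 1 was higher with WT and 0 with E419Q. The counts lower with WT were 17 or more in each fit that left out 1 library and 15 with DESeq2, and those with E419Q 19 or more and 18 with DESeq2. SRM, the spermidine synthase, fell by 0.96 with WT and 0.91 with E419Q, from 142 CPM with Empty to 73.1 and 77.5 CPM (edgeR adjusted p = 1.87e-07 and 4.68e-07). ODC1 fell by 0.66 with WT and 0.55 with E419Q, NME1, a nucleoside diphosphate kinase, by 0.64 and 0.58, and CTPS1, which makes CTP, by 0.92 and 0.66. FBL was not called with WT or E419Q (log2 differences 0.05 and -0.13). These lower levels in WT libraries stood beside a MYC transcript whose interval against Empty spanned 0.

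Directly between E419Q and WT, 4 of the 39 genes were lower with E419Q by edgeR, beside 3.59% lower among all genes, and the median was 0.00. None was higher by edgeR or DESeq2 (1 at an unadjusted p under 0.05), and DESeq2 called 1 lower. The 4, named after their values were seen, were CCND2, IMPDH2, LDHA and SHMT2. CCND2 was at 163 CPM with Empty, 162 with WT and 107 with E419Q, and E419Q was lower than WT by a log2 fold change of -0.61 (edgeR adjusted p = 4.05e-05). Of the list genes tested in both lines and lower with siKLF5 in BICR31, 20 of 32 (62.5%) were also lower with WT in HCC95. That is 83.3% of the 24 lower there. Over all genes tested in both lines these shares were 20.3% and 21.5%. With E419Q 22 genes were shared, 68.8% of 32 and 88% of 25, beside 20.3% and 24.2% over all genes. With 32 of 39 list genes lower in BICR31 and 24 or 25 in HCC95, most of those must be shared. These overlaps therefore follow largely from the counts lower in each line and are no separate result about shared genes.

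**Figure D5:**
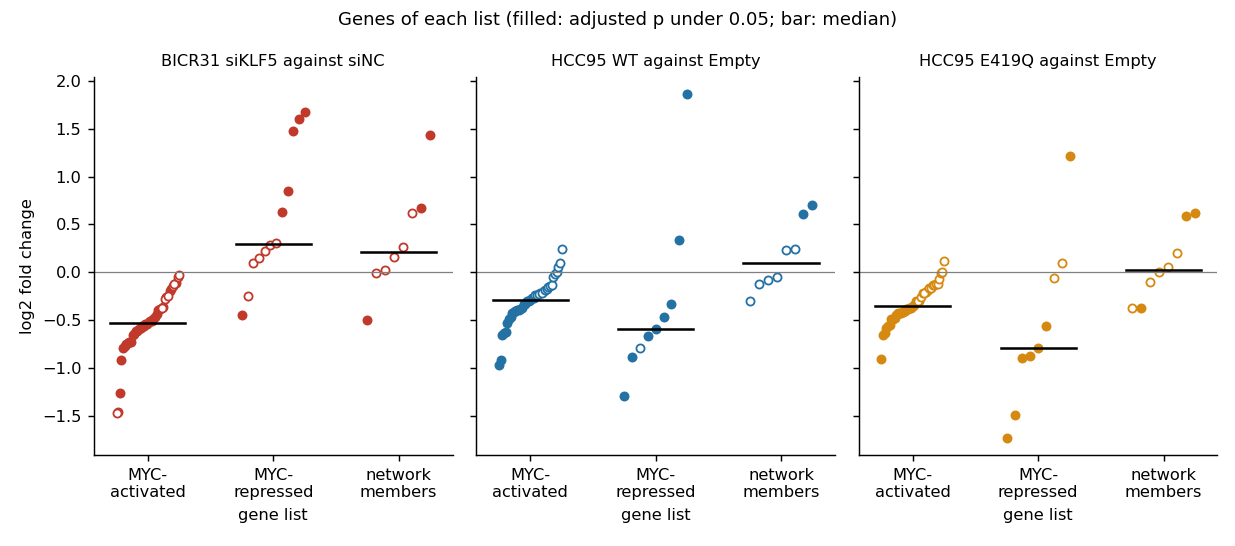
Log2 fold changes of the MYC-activated list, the MYC-repressed list and the 8 network genes, 1 point per gene tested in order of value, filled where the adjusted p was under 0.05, with a bar at the median, for siKLF5 against siNC, WT against Empty and E419Q against Empty. The medians of the MYC-activated list are -0.53, -0.29 and -0.35, and those of the MYC-repressed list 0.30, -0.59 and -0.79.

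Genes that MYC is known to repress were described by a list of 12. In BICR31, 5 rose and 1 fell with siKLF5, beside 15.3% higher and 10.8% lower among all genes tested, with a median log2 fold change of 0.30. CDKN1A, which encodes the cyclin-dependent kinase inhibitor p21, rose by 1.47, from 1719 to 4756 units on average, and CDKN2B, which encodes the CDK4/6 inhibitor p15, rose by 1.61, from 439 to 1335 units (limma adjusted p = 2.19e-10 and 4.29e-08). THBS1, encoding thrombospondin 1, fell by 0.45. In HCC95, 9 of the 12 were tested. With WT 2 rose and 6 fell (median -0.59), beside 10.8% higher and 12.1% lower among all genes tested. With E419Q 1 rose and 6 fell (median -0.79), beside 10.4% higher and 10.8% lower. DESeq2 called fewer of them lower, 3 with WT and 2 with E419Q, and 1 higher in each. THBS1 fell by 1.29 and 1.49, and CDKN1A by 0.33 and 0.79, while NDRG1, a stress-response gene, rose by 1.86 and 1.21 (largest edgeR adjusted p of these 6 values 0.0471, for CDKN1A with WT). That CDKN1A call was lost in 7 of 11 alternatives (adjusted p up to 0.424), among them each fit without an E419Q or WT library or without Empty A. NDRG2 rose by 0.85 with siKLF5 and fell by 0.59 with WT and 0.88 with E419Q, of which the WT call was lost with DESeq2 (adjusted p = 0.275) and without WT B (edgeR adjusted p = 0.134), and the E419Q call with DESeq2 (0.0653). CDKN2B was listed at 0 in all 6 HCC95 libraries.

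Regulators and cofactors of MYC protein moved in both directions. Of 17 genes, 4 rose and 5 fell with siKLF5, 1 rose and 3 fell with WT, and 2 rose and 2 fell with E419Q, with medians of -0.02, -0.04 and -0.02. The 9, 4 and 4 called of 17 stood beside 26.1%, 22.9% and 21.2% called among all genes tested, and DESeq2 called 0 with WT and 1 with E419Q, where edgeR gave 7 and 8 at an unadjusted p under 0.05. With siKLF5, SKP2, a ubiquitin ligase subunit that acts on MYC, fell by 0.86, RUVBL1, a chromatin-remodelling ATPase, by 0.59 and AURKA, a kinase that stabilises MYC family proteins, by 0.40, and KAT5, an acetyltransferase coactivator, rose by 0.57 (largest limma adjusted p of the 4 genes 0.00136). USP28, a deubiquitinase that stabilises MYC, rose by 0.39 with WT and 0.78 with E419Q, and was higher with E419Q than with WT by 0.39 (edgeR adjusted p = 0.0108, 8.35e-06 and 0.0152). The call with E419Q held under all 11 alternatives. The WT call was lost with DESeq2 and without Empty B or WT B (adjusted p up to 0.262), and the call between E419Q and WT with DESeq2 and without E419Q A, WT A or WT B (up to 0.467). USP28 stood at 47.5 CPM with Empty, 62.4 with WT and 83.1 with E419Q on average. AURKA, lower with siKLF5, was higher with E419Q than with Empty by 0.39 (edgeR adjusted p = 0.0155), a call lost with DESeq2 among other alternatives. PIM1, a kinase that phosphorylates MYC, fell by 0.46 with E419Q (edgeR adjusted p = 0.00614), a call lost with DESeq2 and without E419Q A or Empty A (adjusted p up to 0.179).

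Of 9 corepressor genes that serve MXD proteins and MNT, 3 rose with siKLF5 and none fell by limma (0 lower at an unadjusted p under 0.05), beside 15.3% higher and 10.8% lower among all genes tested. Among them were HDAC2 and SIN3B, by 0.26 and 0.27 on the log2 scale (limma adjusted p = 0.0283 and 0.0496). None of the 9 was called when the libraries were scaled to a common total or quantile-normalised, or without siKLF5 A or siNC B. In HCC95 SIN3A rose by 0.29 with WT, a call lost with DESeq2 and without Empty A or WT A (adjusted p up to 0.199), and none of the 9 was called with E419Q against Empty by edgeR or DESeq2 (1 at an unadjusted p under 0.05). Of 11 genes of the MGA complex, 1 rose and 3 fell with siKLF5, a count near the 15.3% higher and 10.8% lower among all genes tested. Among those that fell were TFDP1, the dimer partner of E2F proteins, by 0.57, and PCGF6, the subunit that defines PRC1.6, by 0.77 (limma adjusted p = 2.37e-06 and 0.0350). The PCGF6 call was lost in 5 of 11 alternatives (adjusted p up to 0.154): without a filter and without siKLF5 B, siKLF5 C, siNC B or siNC C. In HCC95, 1 rose and 1 fell in each comparison with Empty by edgeR, again near the background shares of 22.9% and 21.2% called, and DESeq2 called 0 in either direction (edgeR gave 1 higher and 4 lower at an unadjusted p under 0.05 in each). The histone methyltransferase gene EHMT2 was the one that rose, by 0.36 with WT and 0.33 with E419Q. Its call was lost without WT A in the first comparison (edgeR adjusted p = 0.0733) and without E419Q B or Empty A in the second (up to 0.316).

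The network genes were also set beside the rest of the transcriptome, over the 12 libraries with each line centred on its own mean, among 10263 genes. The correlations are descriptions: libraries of a group share their treatment, and groups of a line share depth and processing. The 5 genes most like MYC were RPS12, a ribosomal protein gene (Pearson r 0.974, Spearman rho 0.965), SLC3A2, the heavy chain of amino acid transporters (0.971, 0.902), DANCR, a snoRNA host gene (0.962, 0.930), GFOD1 (0.962, 0.944) and CDR2L (0.955, 0.930). For E419Q against WT, GFOD1 and CDR2L had log2 fold changes of -0.59 and -0.65 beside -0.32 for MYC, values that the choice by likeness favours. The 2 genes most like MXD4 were KLHL24 (0.973, 0.923), an adaptor of ubiquitin ligases, and YPEL5 (0.972, 0.951). KLHL24 had log2 fold changes of 1.82 with siKLF5, 1.27 with WT and 1.03 with E419Q, beside 1.43, 0.70 and 0.61 for MXD4. The choice by likeness favours these values too, so their shared direction is no separate result. MNT was most like SENP2 (r 0.954), a SUMO protease gene, and C7orf43 (0.938), MXI1 most like CTD-2228K2.7 (0.940) and NINL (0.906), and MXD3 most like C9orf41 (0.932) and TMEM87B (0.888). For MAX (PPP2CB 0.896), MXD1 (MAPRE3 0.883, SNX11 0.876) and MGA (ZFYVE20 0.891, NUDT22 0.815) the best values were lower. Within the network, MYC correlated most strongly with MXD4 (r -0.83) and MNT (-0.69), both negatively, and MXD4 with MNT at 0.64.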

How the data were processed

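Poly(A) RNA of 12 libraries was sequenced, 6 from BICR31 (siKLF5 and siNC, 3 each) and 6 from HCC95 (Empty, WT and E419Q, 2 each). Per the submitters' processing notes, the authors used STAR and RSEM on hg19, and for HCC95 also edgeR and limma. Their versions are not given there. The BICR31 files hold 1 normalised signal per gene as the authors deposited it. Dividing by the step between low values (7.87 to 9.12 units per estimated count) gave values whole within 0.02 for 81.7 to 82.7% of entries, so estimated counts are quoted for depth only and no count test was run there. The HCC95 files hold the expected counts, TPM, FPKM and gene lengths that RSEM gave the authors, per the file headers. The deposited FPKM values were not used.

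The network genes and all gene lists were chosen with earlier results of these data known. BICR31 was tested with limma 3.58.1 (empirical Bayes with a trend) on log2(signal + 1), keeping genes whose mean reached 10 units. HCC95 was tested with edgeR 4.0.16 (quasi-likelihood, TMM, filterByExpr) on expected counts rounded to whole numbers, with all 6 libraries in 1 fit. R was 4.3.3 and Python 3.11.15. All p-values are two-sided and were adjusted by Benjamini-Hochberg over all genes tested, with calls under 0.05. Both fits were also run on simulated data, with the same assumed variability for every gene, and their recovery is not reported here. CPM is estimated counts scaled to the library's total. Levels per length in BICR31 used the mean length deposited for HCC95. Expected counts split reads between similar genes by estimate, so values of genes with near-identical copies are less certain. Intervals cover 95% and, with counts, rest on reads without molecular identifiers. For the edgeR fits, each SE was computed as the absolute log2 fold change over the square root of the quasi-likelihood F statistic. The interval was that SE times a t quantile on either side.

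Genes named were KLF5, the 8 network genes, the wider network and MondoA targets, up to 4 genes per other list and comparison with the smallest adjusted p, and the genes most like a network gene (5 for MYC, 2 for each other). A few genes that this rule names are not reported here. Likeness was Pearson's r of log2(signal + 1) and of log2(CPM + 0.25), among genes whose mean reached 100 units in BICR31 and 5 CPM in HCC95. Alternatives were a pseudocount of 10 units, no filter, quantile or common-total scaling (BICR31), DESeq2 1.42.0, RLE scaling, no filter or fitting only the groups compared (HCC95), and for both lines a replicate block and leaving out each library in turn.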

Additional observations from a re-analysis of the deposited data

Results flagged for a closer look

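The effects of WT and E419Q on MYC in HCC95 differed by a direct test between the mutant and wild-type libraries. MYC stood at 278 and 265 CPM with WT and at 228 and 213 CPM with E419Q, without overlap. The log2 fold change was -0.319 (SE 0.0683, edgeR adjusted p = 0.00331). With 2 libraries a group, lack of overlap says little by itself. MNT and MGA, neither of them called in this comparison, did not overlap either. Over the alternatives the adjusted p ranged from 0.00025 to 0.0961, and 8 of 11 kept the call.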

How the results depend on the processing

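Of the values of network genes that were called, 87 of 99 kept their call under the alternatives and 12 lost it, with no change of direction. Of those not called, 230 stayed so, 1 became called (MAX with siKLF5, without siNC C) and 22 changed sign. DESeq2 called 950 genes with WT against Empty, 963 with E419Q against Empty and 387 between E419Q and WT, where edgeR called 2962, 2737 and 1034. It called 1 network gene with WT, 1 with E419Q and 0 between them, and MYC between E419Q and WT missed the threshold (log2 fold change -0.317). The cause was not tested. With 1 library left out, the genes called were 1719 to 2792 with WT, 1626 to 2603 with E419Q and 597 to 1172 between them. The network genes called were then 1 to 2 with WT and 0 to 1 between E419Q and WT, and the MYC value between them ranged from -0.37 to -0.271. An arm left with 1 library was assumed to vary like the other groups. Quantile normalisation turned the split of BICR31 calls from 2404 higher and 1693 lower to 2005 and 2129, and a common total to 2149 and 2015. The median of all genes moved by less than 0.1 on the log2 scale.

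Sign changes concerned values that were not called. In BICR31 MXD3 was -0.0427 when quantile-normalised and -0.0175 with a common total. With 1 library left out, MXD3 ranged from -0.109 to 0.112, MGA from -0.104 to 0.0601 and MLXIPL from -1.05 to 0.406. Without a filter, MNT was -0.00851 and MLX -0.00145 with E419Q against Empty. With 1 library left out, those values ranged from -0.0983 to 0.11 for MNT and from -0.0555 to 0.0961 for MLX. Against Empty with WT, MAX then ranged from -0.352 to 0.0605, MGA from -0.182 to 0.0213 and MLX from -0.135 to 0.015. Between E419Q and WT, MAX ranged from -0.16 to 0.252, MXD1 from -0.316 to 0.153, MXD3 from -0.165 to 0.0858, MXD4 from -0.187 to 0.0329, MXI1 from -0.106 to 0.0705 and ARRDC4 from -0.219 to 0.0422.

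Same-lettered libraries did not deviate together (correlations -0.00165 to 0.026 in BICR31 and -0.033 to 0.0228 in HCC95), so the letters are not taken as pairs. With the letter as a replicate block, 4076 genes were called with siKLF5, 2900 with WT, 2686 with E419Q and 987 between E419Q and WT, and the calls of the 8 network genes did not change. Depth limits the genes with few estimated counts per BICR31 library: MLXIPL (2 to 15), MYCN (3 to 8 with siNC), MYCL (4 to 19) and, of the 8 network genes, MXD1 (10 to 30).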
